A study of Mus musculus with 31 samples.

Results

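The exon junction complex (EJC) genes were followed in the liver of mice in which the nonsense-mediated mRNA decay (NMD) factor *Upf3b* was depleted with an antisense oligonucleotide (ASO). The members were chosen by gene symbol and not by a rule on their measured values, although earlier results of these data were known. They are the core genes *Eif4a3*, *Magoh*, *Magohb* and *Rbm8a*, the core-binding *Casc3*, the peripheral genes *Rnps1*, *Acin1* and *Sap18*, and the disassembly factor *Pym1*, 9 of 31172 genes used. All 31 mice were hFIX-R29X animals aged 8 to 14 weeks. Their own factor IX is absent, and the human transthyretin promoter, active mainly in hepatocytes, drives a human *FIX* minigene that bears the nonsense mutation R29X. Mice received 6 subcutaneous injections and livers were collected 48 h after the last dose. Every 5 days is the interval in the dosing protocol, whereas the dose entry of each sample says weekly. The 5 groups were DPBS (the vehicle, n = 11, 6 females and 5 males), Control-GalNAc-ASO 15 mg/kg (n = 4, 2 females and 2 males), Control-GalNAc-ASO 20 mg/kg (n = 6, 3 females and 3 males), Upf3b-GalNAc-ASO 10 mg/kg (n = 5, 2 females and 3 males) and Upf3b-GalNAc-ASO 20 mg/kg (n = 5, 2 females and 3 males). The ASOs carried a GalNAc group, a ligand of the hepatocyte asialoglycoprotein receptor. The control ASO was given at another dose than the lower *Upf3b*-ASO dose, so agent and dose cannot be told apart in that comparison.

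The EJC is deposited on spliced mRNA just upstream of exon-exon junctions and travels with the mRNA to the cytoplasm. When a ribosome stops upstream of a remaining EJC, UPF3B links the complex to UPF2 and UPF1, and the mRNA can be degraded by NMD. EIF4A3 is an RNA helicase that clamps the RNA, MAGOH or its close paralog MAGOHB pairs with RBM8A (Y14) to lock that clamp, and CASC3 (MLN51) binds EIF4A3. RNPS1, ACIN1 and SAP18 form a peripheral complex that acts in splicing, and PYM1 helps ribosomes to strip the EJC from mRNA.

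The *Upf3b* ASO is shown because it defines the treatment, and its target site was searched in the annotated transcripts of every member. Its sequence, read 5′ to 3′, and the complementary mRNA sequence were:
Upf3b ASO: ggatatagatgtaacg
Complementary mRNA site: cgttacatctatatcc
The full 16-base site was present in 1 of 3 annotated *Upf3b* transcripts and in none of the annotated transcripts of the 9 members (GENCODE M21, GRCm38). Sequence outside annotated transcripts, such as introns, was not searched. The longest run of bases complementary to the ASO was 8 in *Acin1*, 7 in *Eif4a3*, *Magohb* and *Casc3*, 6 in *Magoh*, *Rbm8a*, *Rnps1* and *Sap18*, and 5 in *Pym1*.

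*Magoh* and *Magohb* encode nearly interchangeable proteins, so a stretch of both coding sequences is shown to let the reader see where the paralogs differ. It is the 60-base window of whole codons with the most differences, near the start of the coding sequence. The labels name a 3′ library kit, so whether reads covered this stretch is not known. The 60 bases start at coding base 37 of *Magoh* and coding base 43 of *Magohb*, and capitals mark the bases that differ:
Magoh: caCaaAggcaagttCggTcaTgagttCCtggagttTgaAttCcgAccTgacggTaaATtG
Magohb: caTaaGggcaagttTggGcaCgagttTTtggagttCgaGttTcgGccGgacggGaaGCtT
In this window 16 bases differed. Over the 438 aligned coding bases 82 differed (81.3% identical), and the longest identical run was 17 bases. Of 146 aligned codons 76 differed, 75 of them without changing the amino acid.

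Relative abundance was deposited per gene as TPM, a share of the library scaled to the same total in each mouse. Most low values, 71.6% to 81.9% in a mouse, were whole multiples of a common step, which was taken as the value of 1 read. On this basis the libraries held 1020675 to 7391612 reads (median 3627939), and 3 reads corresponded to 0.406 to 2.94 TPM. This inferred depth is several times below the average sequencing depth in the study's methods, so the read numbers, floors and counting errors given here rest on the step and not on stated library totals. The shallowest library, Upf3b-GalNAc-ASO 10 mg/kg replicate 3, also had the lowest median correlation with its own group (0.874). DPBS replicate 6 was at 0.889. The 9 hepatocyte markers with a value summed to 16963 to 39453 TPM over all mice and none was at 0 throughout. In bulk liver, a lower number of cells of a type and less RNA per cell cannot be told apart.

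The ASO target was checked first. *Upf3b* was at 66.9, 27.1, 58.5 and 78.7 TPM in the 4 Control-GalNAc-ASO 15 mg/kg mice and at 5.97, 20.7, 53.7, 3.95 and 23.3 TPM in the 5 Upf3b-GalNAc-ASO 10 mg/kg mice. These groups overlapped through replicate 3 of the *Upf3b*-ASO mice. At 20 mg/kg it was at 85.3 to 135 TPM (median 113) with control ASO and at 9.37, 2.68, 2.57, 16.7 and 7.68 TPM with *Upf3b* ASO, without overlap. The log2 fold change was −1.73 (SE 0.61, limma adjusted p = 0.211) for 10 against 15 mg/kg and −3.87 (SE 0.40, limma adjusted p = 1.59e-05) at 20 mg/kg. Against DPBS it was −2.57 (limma adjusted p = 0.00455) and −3.68 (limma adjusted p = 3.21e-06). Without replicate 3 the comparison of 10 with 15 mg/kg gave −2.22 (limma adjusted p = 0.0597). The exact permutation test of 10 against 15 mg/kg gave p = 0.0317 (two-sided, unadjusted). DPBS mice spanned 33.8 to 136 TPM of *Upf3b* (median 104). All 4 Control-GalNAc-ASO 15 mg/kg mice lay below that median (log2 fold change −0.75, interval −1.47 to −0.03, limma adjusted p = 0.691). Thus the target was lowered past the threshold against both controls at 20 mg/kg. At 10 mg/kg it passed against DPBS but not against control ASO, whose mice were themselves nominally low.

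Of the 9 members, 8 reached a median of 5 TPM in at least 1 group and were tested, and none changed at an adjusted p below 0.05 in any of 8 comparisons by limma. Fold changes below are differences of mean log2(TPM + 1) adjusted for sex, with 95% intervals for the single gene. The adjustment of p covered all genes tested in a comparison. *Pym1* was too low to test by limma. The intervals left room for changes of different size in different members, as given with each comparison.

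*Eif4a3* (chr11:119288363-119300089, minus strand, 12 exons) was at 22.3, 24.1, 43.8 and 65.5 TPM in the Control-GalNAc-ASO 15 mg/kg mice and at 29.2, 30.1, 10.8, 20.0 and 45.6 TPM in the Upf3b-GalNAc-ASO 10 mg/kg mice. It was at 19.1 to 43.1 TPM (median 23.1) in the Control-GalNAc-ASO 20 mg/kg mice and at 11.3, 17.7, 23.0, 17.1 and 38.0 TPM in the Upf3b-GalNAc-ASO 20 mg/kg mice. The DPBS mice spanned 16.7 to 60.8 TPM (median 29.7). All groups overlapped. The group means ran from 38.9 TPM ± 20.2 (SD, n = 4) with control ASO at 15 mg/kg down to 21.4 TPM ± 10.1 (SD, n = 5) with *Upf3b* ASO at 20 mg/kg. Each step between neighbouring means was smaller than the larger of both SDs. The SD describes single mice, so such statements, here and for the other members, are not tests between groups. Of the 2142 31-base stretches of *Eif4a3* transcripts, 669 also occurred in other genes, 483 of them in its copy *Gm5580*. The *Eif4a3* value was a whole number of reads in 31 of 31 mice.

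*Magoh* (chr4:107879755-107887424, plus strand, 5 exons) was at 72.5, 154, 102 and 166 TPM with control ASO at 15 mg/kg and at 85.7, 105, 67.6, 77.7 and 58.0 TPM with *Upf3b* ASO at 10 mg/kg. The 20 mg/kg groups were at 97.5 to 168 TPM (median 118) with control ASO and at 112, 58.4, 87.5, 109 and 118 TPM with *Upf3b* ASO. The highest value of all, 297 TPM, belonged to DPBS replicate 6, in a group with a low of 48.3 and a median of 79.4 TPM. The means of both control-ASO groups, 124 TPM ± 44.0 (SD, n = 4) and 123 TPM ± 28.3 (SD, n = 6), were nominally the highest and that of the Upf3b-GalNAc-ASO 10 mg/kg mice, 78.9 TPM ± 18.2 (SD, n = 5), the lowest. All neighbouring means in this order lay within the larger of both SDs of each other, which does not compare the highest with the lowest.

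*Magohb* (chr6:131284388-131293244, minus strand, 5 exons) was the lowest of the tested members in reads, with 0 to 120 reads per mouse (median 28). It was at 9.04, 1.43, 7.44 and 14.7 TPM with control ASO at 15 mg/kg and at 3.90, 2.99, 13.7, 8.90 and 9.02 TPM with *Upf3b* ASO at 10 mg/kg. Its values at 20 mg/kg were 5.41 to 19.9 TPM (median 9.23) with control ASO and 15.3, 6.53, 10.1, 3.42 and 3.49 TPM with *Upf3b* ASO. DPBS mice spanned 0 to 17.8 TPM (median 9.03), the 0 again being replicate 6, in which 3 reads stood for 2.51 TPM. Group means lay between 7.70 TPM ± 4.36 (SD, n = 5) and 10.95 TPM ± 6.10 (SD, n = 6) and neighbours did not differ beyond their spread. *Magohb* accounted for 0 to 24.0% of the *Magoh* and *Magohb* reads of a mouse (median 8.51%). The group medians of this share lay between 7.45% and 10.3%. No 31-base stretch of *Magoh* transcripts occurred in another gene, whereas 497 of the 1740 in *Magohb* did, 491 of them in the pseudogene *Gm44958*, which could share its reads. The *Magohb* value was a whole number of reads in 31 of 31 mice.

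**Figure D1:**
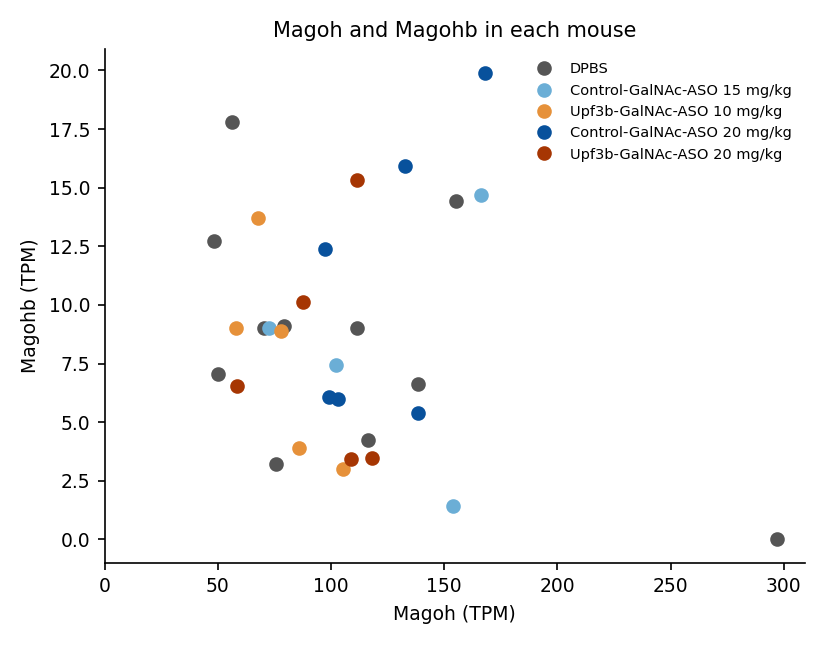
Relative abundance of *Magoh* (x axis, TPM) against *Magohb* (y axis, TPM) in each of the 31 mice, coloured by group. A single DPBS mouse sits at 297 TPM of *Magoh* and 0 TPM of *Magohb*, apart from the other mice, and the 5 groups are intermixed.

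*Rbm8a* (chr3:96629933-96633791, plus strand, 6 exons) was at 103, 116, 123 and 147 TPM with control ASO at 15 mg/kg and at 109, 131, 217, 125 and 77.6 TPM with *Upf3b* ASO at 10 mg/kg. The range at 20 mg/kg was 68.9 to 138 TPM (median 88.2) with control ASO, and the *Upf3b*-ASO mice were at 135, 56.1, 96.4, 126 and 88.9 TPM, and DPBS mice spanned 67.1 to 132 TPM (median 99.9). The highest mouse, at 217 TPM, was the shallow replicate 3 of the Upf3b-GalNAc-ASO 10 mg/kg group. *Rbm8a* shared 344 of its 3295 31-base stretches with its processed copy *Rbm8a2*, and the *Rbm8a* value was a whole number of reads in 1 of 31 mice. *Rbm8a2* held 4.92% to 37.3% of the reads given to both genes (median 14.3%), so the split of reads between them was uncertain. Added together, both genes came to a whole number of reads in 4 of 31 mice. In all, 429 of the *Rbm8a* stretches occurred in other genes, 194 genes including *Rbm8a2*, and where the remaining fractions came from was not tested. The means ran from 132 TPM ± 51.9 (SD, n = 5) with *Upf3b* ASO at 10 mg/kg to 96.4 TPM ± 24.1 (SD, n = 6) with control ASO at 20 mg/kg. Of the neighbouring means in this order, those of the Control-GalNAc-ASO 15 mg/kg and DPBS mice, 122 and 101 TPM, were apart by more than either SD (18.6 and 19.4 TPM). The mice of both groups still overlapped (log2 fold change 0.28, interval −0.17 to 0.73, limma adjusted p = 0.779). The fold change of *Rbm8a2* was 0.08 (limma adjusted p = 0.953) for 10 against 15 mg/kg and −0.69 (limma adjusted p = 0.408) at 20 mg/kg.

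*Casc3* (chr11:98804905-98833814, plus strand, 15 exons) varied most between the group means of the tested members, 2.36 times from lowest to highest. It was at 6.82, 11.4, 14.9 and 11.4 TPM in the Control-GalNAc-ASO 15 mg/kg mice, the lowest group at 11.1 TPM ± 3.31 (SD, n = 4). It was at 15.3, 39.8, 21.6, 13.9 and 41.0 TPM in the Upf3b-GalNAc-ASO 10 mg/kg mice, the highest group at 26.3 TPM ± 13.2 (SD, n = 5). Of these 5 mice 4 lay above every Control-GalNAc-ASO 15 mg/kg mouse. At 20 mg/kg the order was turned, with 29.7, 11.8, 23.3, 17.6, 26.8 and 27.2 TPM for control ASO and 31.1, 20.4, 12.9, 14.7 and 18.5 TPM for *Upf3b* ASO, and these groups overlapped throughout. DPBS mice spanned 7.64 to 31.2 TPM (median 15.9), and their mean of 18.4 TPM ± 6.40 (SD, n = 11) exceeded that of the Control-GalNAc-ASO 15 mg/kg mice by more than either SD. The other neighbouring means of *Casc3* lay closer than their spread.

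Of the peripheral genes, *Rnps1* (chr17:24414565-24425901, plus strand, 9 exons) was at 16.4, 20.98, 20.4 and 22.8 TPM with control ASO at 15 mg/kg and at 28.6, 22.9, 16.7, 24.5 and 21.9 TPM with *Upf3b* ASO at 10 mg/kg. Mice dosed at 20 mg/kg had 9.34 to 25.3 TPM (median 16.8) with control ASO and 17.3, 39.6, 17.5, 20.0 and 28.7 TPM with *Upf3b* ASO, and DPBS mice spanned 10.9 to 28.6 TPM (median 17.3). The 2 *Upf3b*-ASO groups had the nominally highest means, 22.9 TPM ± 4.33 and 24.6 TPM ± 9.56 (SD, n = 5 each). Each *Rnps1* group overlapped every other. Of the 5233 31-base stretches of *Rnps1*, 668 also occurred in the pseudogene *Gm9825*.

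*Acin1* (chr14:54642161-54686931, minus strand, 19 exons) was at 58.1, 31.5, 53.7 and 113 TPM with control ASO at 15 mg/kg and at 84.4, 85.1, 207, 52.5 and 70.4 TPM with *Upf3b* ASO at 10 mg/kg. At 20 mg/kg it was at 58.1 to 121 TPM (median 91.0) with control ASO and at 83.3, 68.2, 84.3, 106 and 215 TPM with *Upf3b* ASO. DPBS mice spanned 18.4 to 145 TPM (median 83.5), the lowest being replicate 6. In both *Upf3b*-ASO groups a single mouse, replicate 3 at 10 mg/kg and replicate 6 at 20 mg/kg, stood far above the other 4. The means ran from 64.0 TPM ± 34.5 (SD, n = 4) with control ASO at 15 mg/kg to 111 TPM ± 59.5 (SD, n = 5) with *Upf3b* ASO at 20 mg/kg, and no neighbouring means differed beyond their spread, for *Rnps1* and *Sap18* as well.

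*Sap18* (chr14:57798180-57806638, plus strand, 4 exons) encodes a protein of the peripheral complex and also of a histone deacetylase complex. It was at 93.5, 114, 119 and 119 TPM with control ASO at 15 mg/kg and at 104, 105, 86.4, 145 and 101 TPM with *Upf3b* ASO at 10 mg/kg. At 20 mg/kg it was at 145, 145, 111, 117, 108 and 110 TPM with control ASO and at 70.4, 289, 90.8, 74.8 and 79.0 TPM with *Upf3b* ASO. Of these last 5 mice 4 lay below every control-ASO mouse and replicate 2 lay above them all. DPBS mice spanned 53.6 to 134 TPM (median 88.9). Of its 5489 31-base stretches 919 also occurred in other genes, 750 of them in *Sap18b*, which was listed at 0 in all 31 mice. *Sap18* came out as whole reads in 1 of 31 mice, alone or with *Sap18b* added. Where its fractions of reads came from was not tested.

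*Pym1* (chr10:128747889-128766564, plus strand, 3 exons) was at 0 in 18 of 31 mice and under 3 reads in 28 of 31. Its 30 reads over all mice included 12 in replicate 6 of the Control-GalNAc-ASO 20 mg/kg mice, the highest value at 3.75 TPM. Any difference in *Pym1* between groups was not detectable at this depth. *Gm8994*, annotated as protein-coding, and the processed pseudogene *Gm5576*, which share sequence with the *Eif4a3* copy *Gm5580*, were listed at 0 in all mice.

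**Figure D2:**
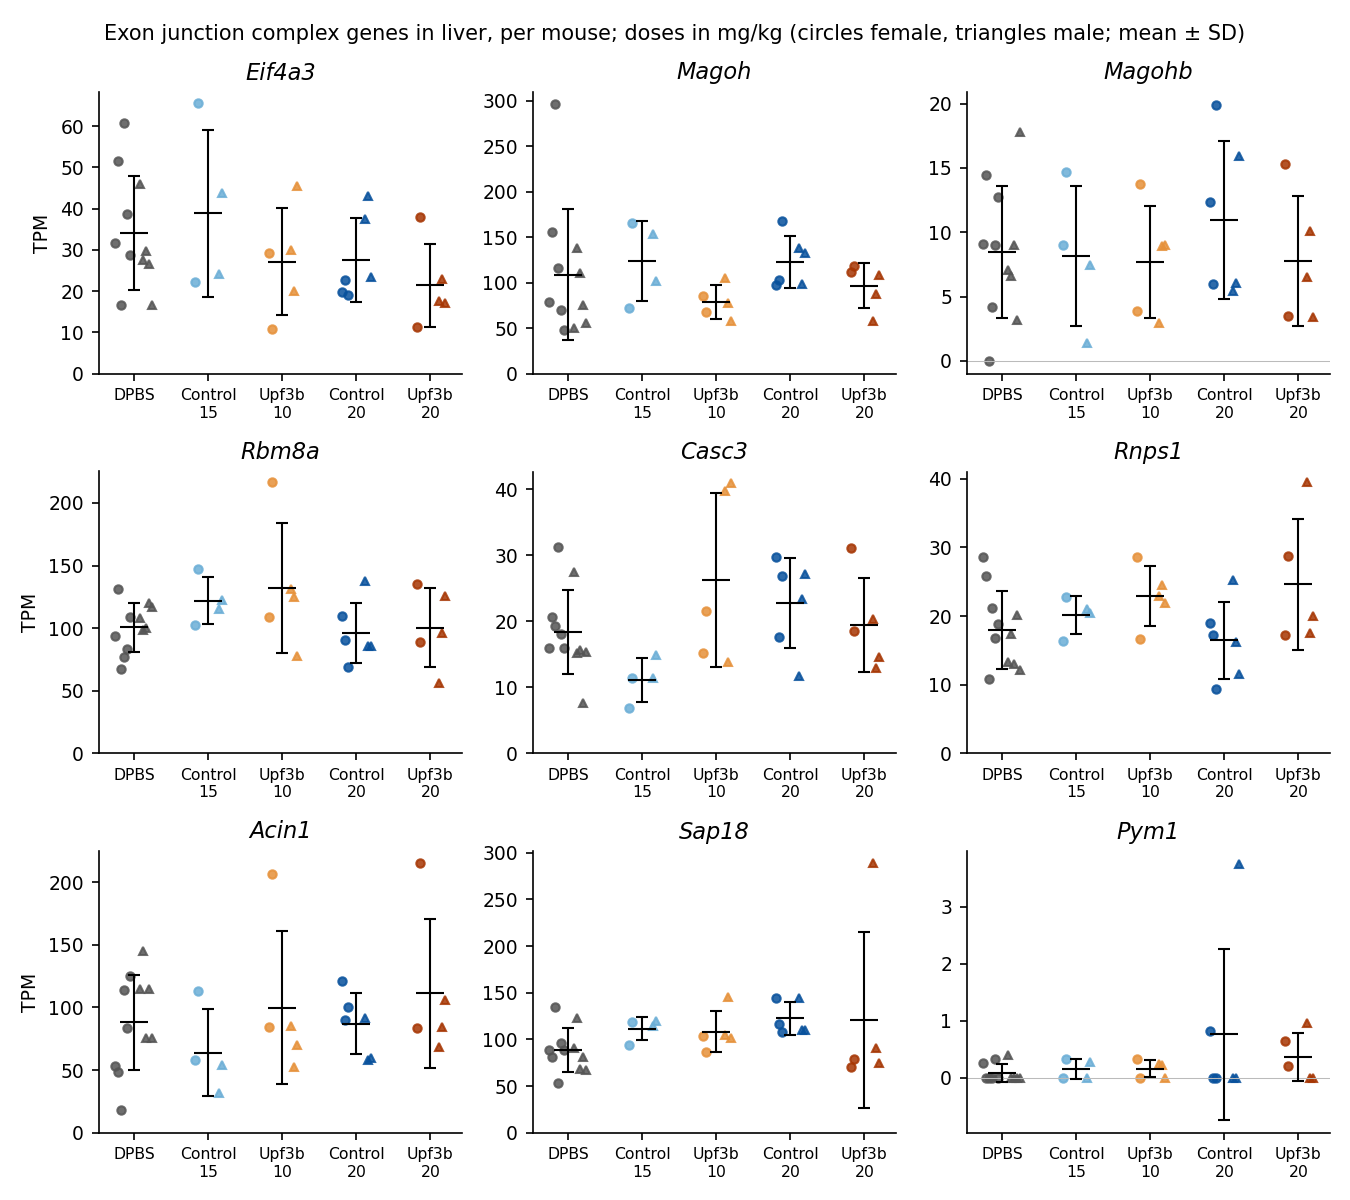
Relative abundance (y axis, TPM) of the 9 EJC genes in each mouse by group (x axis), with circles for females, triangles for males and bars for mean ± SD. The groups overlap in each panel. Single high mice stand out for *Acin1* (207 and 215 TPM) and *Sap18* (289 TPM), and *Pym1* stays at or near 0.

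The first comparison asked whether the EJC genes changed with the lower *Upf3b*-ASO dose, set against control ASO at 15 mg/kg. Of 8 tested members 0 were called by limma, where 27 of 9166 genes tested were called (0.295%). At an unadjusted p below 0.05, 1 member passed, against 15.8% of all genes. That member was *Casc3*, with a log2 fold change of 1.02 (SE 0.45, 95% interval 0.06 to 1.98, limma adjusted p = 0.291). The exact permutation test of the same groups gave p = 0.0317 (two-sided, unadjusted, smallest possible 0.0159). *Acin1* (0.71, interval −0.09 to 1.50) was also nominally higher, and *Magoh* (−0.61, interval −1.34 to 0.13) and *Eif4a3* (−0.54, interval −1.54 to 0.46) nominally lower. Without the shallow replicate 3, *Casc3* was at 0.94 and no longer had an unadjusted p below 0.05 (limma adjusted p = 0.326). The same fit gave 0.48 for *Acin1* and −0.20 for *Eif4a3*, and *Rbm8a* moved from 0.07 to −0.15. *Rnps1* (0.16, interval −0.64 to 0.96) and *Sap18* (−0.08, interval −0.70 to 0.54) were close to 0, and *Magohb* (0.12, interval −1.22 to 1.47) had the widest interval. For 3 of the 8 members the interval lay within a 2-fold change in either direction. The median over the members was 0.10, beside −0.03 over all genes. Of 9 hepatocyte markers tested, 0 were nominally higher with *Upf3b* ASO in this comparison, against 48.4% of all genes. Their median was −0.40 and 0 were called. At 20 mg/kg 3 of the 9 were higher and 6 lower (median −0.05, beside −0.12 over all genes). The part of this difference in the member values was not tested.

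With both agents at 20 mg/kg, 0 of 8 tested members were called by limma, where 236 of 9376 genes tested were called (2.52%). At an unadjusted p below 0.05, 0 members passed, against 18.7% of all genes. *Rnps1* had the highest log2 fold change (0.53, SE 0.39, interval −0.28 to 1.34) and *Acin1* the next (0.34, interval −0.26 to 0.94). *Magohb* (−0.44, interval −1.56 to 0.68), *Eif4a3* (−0.42, interval −1.21 to 0.37) and *Magoh* (−0.34, interval −0.90 to 0.23) were nominally lower. *Rbm8a* (0.03, interval −0.57 to 0.64) and *Casc3* (−0.17, interval −0.95 to 0.60) lay nearest to 0. *Sap18* was at −0.28 (interval −0.95 to 0.39), and without replicate 2 of the *Upf3b*-ASO mice it was at −0.63 (limma adjusted p = 0.164). Without replicate 6 *Acin1* was at 0.10. The adjusted p-values of the 8 members ran from 0.490 to 0.963, and 5 intervals lay within a 2-fold change in either direction. The median was −0.23 over the members and −0.12 over all genes. Of 8 endothelial markers 7 were nominally lower with *Upf3b* ASO in this comparison (median −0.54) and 1 rose. That gene was *Pecam1*, named after its values were seen, at 1485 to 2022 TPM with *Upf3b* ASO and 430 to 1490 TPM with control ASO. It made up most of the summed markers, 1549 to 2282 TPM and 681 to 1732 TPM, and the part of these differences in the member values was not tested.

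**Figure D3:**
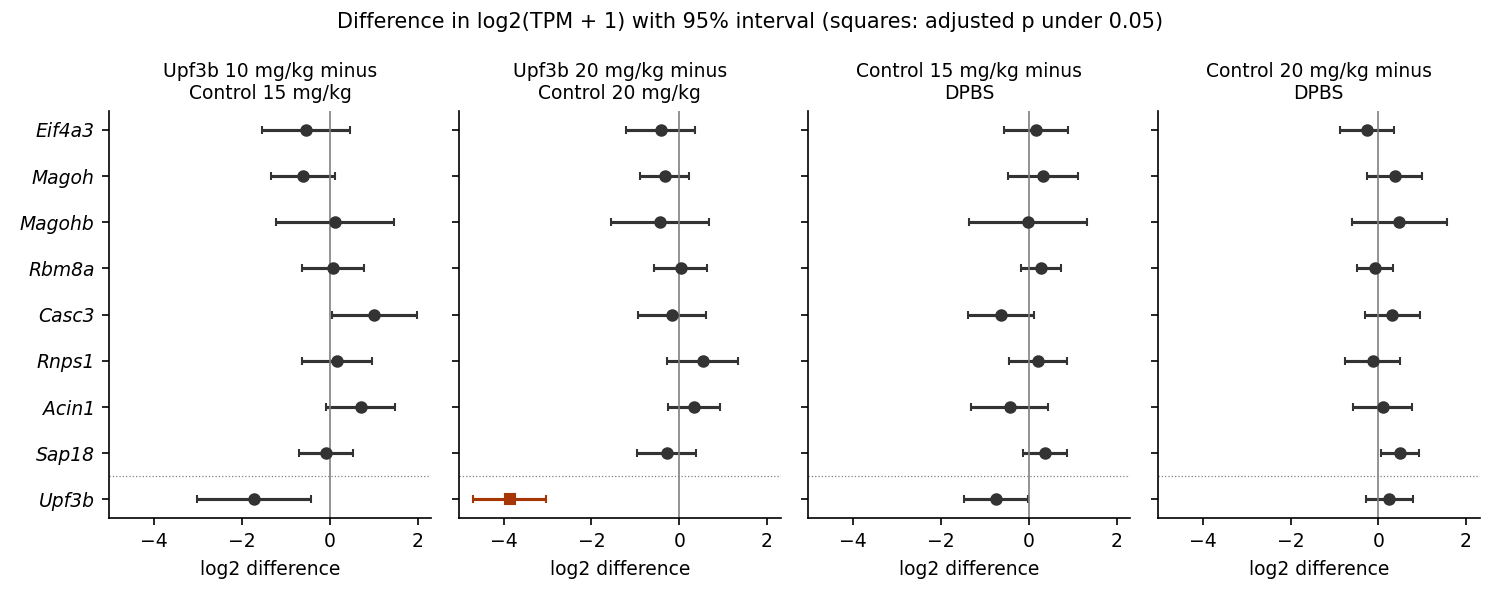
Log2 fold change (x axis, with 95% interval) of the 8 tested EJC genes and *Upf3b* (y axis) in 4 comparisons, 1 per panel. The intervals of the EJC genes reach or cross 0, apart from *Casc3* at 10 against 15 mg/kg (0.06 to 1.98) and *Sap18* in Control-GalNAc-ASO 20 mg/kg against DPBS (0.07 to 0.92), and the square marks the only value with an adjusted p below 0.05, *Upf3b* at 20 mg/kg (−3.87).

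Whether the members responded differently in both dose arms was tested as the difference between the log2 fold changes, the 20 mg/kg arm minus the lower arm. By limma 0 of 8 members and 0 of 9797 genes were called (0%), with 8.16% of all genes at an unadjusted p below 0.05. Only *Casc3* among the members fell below that unadjusted threshold, with a difference of −1.29 (SE 0.59, interval −2.49 to −0.09, limma adjusted p = 0.589). The next in size was *Magohb* at −0.52 (interval −2.17 to 1.13). The interval lay within a 2-fold change either way for 1 member, *Rbm8a* (−0.01, interval −0.90 to 0.87).

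The control ASO was then compared with DPBS to give the background of ASO treatment itself. All comparisons with DPBS used the same 11 mice, so their values are given side by side without counting shared changes. For Control-GalNAc-ASO 15 mg/kg, limma called 0 of 8 members and 0 of 8971 genes (0%), and 0 members against 7.18% of all genes had an unadjusted p below 0.05. *Casc3* was at −0.64 (interval −1.39 to 0.11, limma adjusted p = 0.719), with all 4 control-ASO mice below the DPBS median (permutation p = 0.0498, unadjusted). For Control-GalNAc-ASO 20 mg/kg, limma called 0 of 8 members and 0 of 9140 genes (0%). Here 1 member, *Sap18*, had an unadjusted p below 0.05, against 9.9% of all genes. *Sap18* was 0.50 higher (SE 0.21, interval 0.07 to 0.92, limma adjusted p = 0.469), with all 6 control-ASO mice above the DPBS median and 2 above every DPBS mouse (permutation p = 0.00776, unadjusted). *Casc3* was at 0.32 in that comparison (interval −0.30 to 0.94), on the other side of 0 from the 15 mg/kg mice, and this difference between control-ASO groups was not tested.

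Set against DPBS, Upf3b-GalNAc-ASO 10 mg/kg gave 0 of 8 members called by limma and 34 of 9032 genes (0.376%), with 0 members and 8.27% of all genes at an unadjusted p below 0.05. The member values lay between −0.36 for *Eif4a3* (interval −1.11 to 0.40) and 0.44 for *Casc3* (interval −0.33 to 1.20). Upf3b-GalNAc-ASO 20 mg/kg gave 0 of 8 members and 103 of 9078 genes (1.13%), with 0 members and 11.9% of all genes at an unadjusted p below 0.05. The member values lay between −0.61 for *Eif4a3* (interval −1.32 to 0.09) and 0.45 for *Rnps1* (interval −0.23 to 1.12). Without replicate 2 the value of *Sap18* moved from 0.22 to −0.13, and without replicate 6 that of *Acin1* moved from 0.34 to −0.05.

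Over the 7 comparisons of 2 groups, permutation tests of single members gave an unadjusted p below 0.05 in 3 of 63 cases (4.76%), each of them named above. These cases include *Pym1*, whose few reads could hardly give a difference, and the comparisons share groups, so the cases are not independent. In none of the 7 did the groups of a member fail to overlap, where between 0.0656% and 4.81% of all genes tested did so.

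Sex was examined in the DPBS mice. By limma 0 of 8 members differed between 5 males and 6 females, where 127 of 8998 genes tested were called (1.41%), and 0 members against 9.86% of all genes had an unadjusted p below 0.05. *Acin1* had the largest difference, 0.70 in males minus females (SE 0.40, interval −0.15 to 1.54, limma adjusted p = 0.585), and all 5 males were above the female median. Without DPBS replicate 6, a female, *Acin1* was at 0.36 and *Magoh* at −0.11, and *Eif4a3* (−0.53) and *Rnps1* (−0.52) then had the largest differences. *Casc3* was at −0.36 (interval −1.16 to 0.44), with 4 of 5 males below every female. With all mice *Magoh* was at −0.41 (interval −1.25 to 0.44).

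The spread between mice exceeded the counting error for all 8 tested members in all 5 groups. Counting error here is what the number of reads alone would give, and PCR duplicates are not separated. The coefficient of variation of *Magohb* within groups was 55.7% to 66.9%, with 18.1% to 25.8% from counting. *Magoh* varied by 23.0% to 66.1% with 4.64% to 6.99% from counting, and *Sap18* by 11.004% to 78.0% with 4.76% to 6.63%. *Rnps1* came nearest to its counting error, with 13.5% to 38.9% and 10.8% to 14.7%. On the log2 scale the SD within groups was lowest for *Rbm8a* (0.38), *Rnps1* (0.41) and *Sap18* (0.43) and highest for *Magohb* (0.99), beside a median of 0.76 over the 8503 genes whose median across the 31 mice reached 5 TPM. Groups accounted for 4.19% of the log2 variance in *Magohb* up to 30.5% in *Casc3*, beside a median of 15.8% over those genes.

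**Figure D4:**
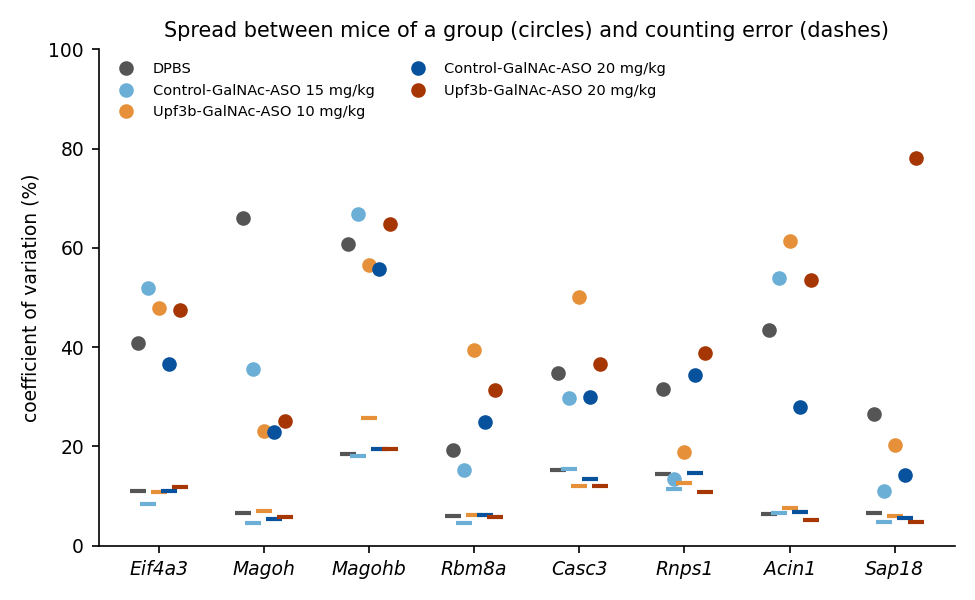
Coefficient of variation (y axis, %) of each tested EJC gene (x axis) within each of the 5 groups, as circles, with the part that read counting alone would give as dashes. Each circle lies above its dash. *Sap18* reaches 78.0% in the Upf3b-GalNAc-ASO 20 mg/kg mice, the group that holds the 289 TPM mouse.

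Genes around the EJC were examined as lists. Of the EJC assembly factors and partners, 16 were tested and 0 were called at either *Upf3b*-ASO dose against control ASO, with medians of −0.01 and −0.16, beside −0.03 and −0.12 over all genes. The largest values were those of the mRNA-export helicase gene *Ddx39* (1.75, limma adjusted p = 0.125) and the translation helicase gene *Eif4a1*, a relative of *Eif4a3* (−1.25, limma adjusted p = 0.206), in the lower arm. In the 20 mg/kg arm they were those of *Cwc22*, which escorts EIF4A3 to the spliceosome (−1.57, limma adjusted p = 0.238), and *Cwc27*, another spliceosomal EJC-loading factor (−1.29, limma adjusted p = 0.202). Of the NMD factors 1 of 16 rose in the lower arm, where 0.295% of all genes were called, and 1 of 17, *Upf3b* itself, fell at 20 mg/kg, where 2.52% were. Their medians were 0.35 and −0.0043, and 5 of 16 and 7 of 17 had an unadjusted p below 0.05, against 15.8% and 18.7% of all genes. Both counts include *Upf3b* itself. In Control-GalNAc-ASO 15 mg/kg against DPBS, 5 of 16 NMD factors were higher (median −0.37), against 55.8% of all genes (median 0.07). In Upf3b-GalNAc-ASO 10 mg/kg against DPBS, 10 of 16 were higher (median 0.32), against 52.7% of all genes (median 0.03), and 0 were called raised. The factor that rose against control ASO in the lower arm was *Upf2*, whose product bridges UPF3B and UPF1. It was at 101 to 681 TPM (median 143) with *Upf3b* ASO and 13.1 to 80.2 TPM (median 41.4) with control ASO. Its log2 fold change was 2.39 (SE 0.47, limma adjusted p = 0.0491), and at 20 mg/kg it was 0.66 (limma adjusted p = 0.257). The call of *Upf2* was lost in 7 of the 9 fits that left out 1 mouse, and its log2 fold change over these 9 fits was 1.99 to 2.83.

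The other NMD factors with large values were *Smg9*, a regulator of the SMG1 kinase (1.78, limma adjusted p = 0.128, and 0.0329 in 1 fit over all 31 mice), in the lower arm and the helicase gene *Upf1* (1.53, limma adjusted p = 0.250) at 20 mg/kg. *Upf3a*, the paralog of *Upf3b*, was at 0.92 (limma adjusted p = 0.516) and −0.48 (limma adjusted p = 0.719). Of 10 tested NMD decay enzymes 0 were called in either arm, with medians of 0.19 and 0.12. The largest values were those of the deadenylase gene *Cnot8* in both arms (−1.97, limma adjusted p = 0.282, and −1.15, limma adjusted p = 0.101), the decapping cofactor gene *Pnrc2* in the lower arm (0.84, limma adjusted p = 0.397) and the exosome nuclease gene *Exosc10* at 20 mg/kg (0.99, limma adjusted p = 0.270).

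Members whose proteins bind each other, and the paralogs *Magoh* and *Magohb*, were compared across the 31 mice after removal of group and sex. Of 8 pairs 0 had an adjusted permutation p below 0.05. *Magoh* and *Magohb* had the strongest relation (Pearson r = −0.491, permutation p = 0.00635, adjusted p = 0.0508). Its Spearman rho was −0.194 (permutation p = 0.295, adjusted p = 0.590). Without the 2 mice farthest from the *Magoh* median r was −0.184, so the relation rested on those mice. *Rnps1* and *Sap18* gave r = 0.384 (permutation p = 0.0326, adjusted p = 0.130) and rho = 0.362 (permutation p = 0.0478, adjusted p = 0.382), and r was 0.203 without the 2 mice farthest from the *Rnps1* median. Without DPBS replicate 6 alone this pair gave r = 0.565 (permutation p = 0.00108, adjusted p = 0.00864), so its call depended on single mice. *Magoh* and *Rbm8a*, whose proteins form the clamp, gave r = −0.03 (permutation p = 0.853) and rho = 0.07 (permutation p = 0.715).

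The genes most like each member over the 31 mice were found among the 8503 genes by Pearson correlation of log2(TPM + 1). They were *Dnajc19* (0.68) and *Ywhaq* (0.64) for *Eif4a3*, *Pigk* (0.70) and *Hnrnpf* (0.69) for *Magoh*, *Eif2b4* (0.74) and *Ehd4* (0.70) for *Magohb*, and *Naa35* (0.77) and *Gbf1* (0.68) for *Rbm8a*. For *Casc3* they were *Id3* (0.65) and *Mrpl20* (0.62), for *Rnps1* *Zfp622* (0.68) and *Slc25a47* (0.66), for *Acin1* *Usp17la* (0.83) and *Supt6* (0.81), and for *Sap18* *Ctsl* (0.75) and *Insig2* (0.75). No member was among the 2 nearest genes of another. These are descriptions over mice that share groups, sexes and differences in depth, without a test.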

How the data were processed

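Liver RNA of 31 mice was sequenced, and the authors quantified transcripts by Salmon (version 0.7.2), with 1 TPM value per gene symbol and mouse deposited. The submitters' processing notes also name bcl2fastq (version 2.17.1.14) and GRCm38.p4, and the index held mouse cDNA sequences of the Ensembl release stated in the study's methods. The labels name a 3′ library kit and the study's methods another kit. Of 31198 symbols, 26 turned into dates were left out. Most low deposited TPM values were multiples of the same step in a mouse whatever the gene, so they are not per length, and levels are compared within a gene only. Depth was read from this step and covers counting error only. Between 71.6% and 81.9% of a mouse's low values came out within 0.02 of a whole read, so no count test was used.

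Genes whose median reached 5 TPM in a group compared were fitted on log2(TPM + 1) with limma (version 3.58.1, R version 4.3.3; trend and robust) and sex as covariate, two-sided, with Benjamini-Hochberg adjustment over all genes tested and a threshold of 0.05. Each comparison used only the mice of its groups, and replicates are separate mice. Permutation tests were run in Python (version 3.11.15, scipy version 1.17.1), two-sided, exact over all regroupings for single genes and with 100000 resamples for the 8 pairs. Scripts were tested on simulated data. Alternatives were a pseudocount of 5, no filter, quantile normalization, 1 fit over 31 mice, no sex covariate, a replicate block and leaving out each mouse. Leaving DPBS replicate 6 out of the pairs was chosen after seeing the data. Sequences and positions come from GENCODE M21 (GRCm38) and the ASO from the study's supplement.

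Named genes were all members, *Upf3b*, *Upf3a*, member copies with a value, listed EJC partners, NMD factors and decay enzymes that were called or had the 2 largest log2 fold changes of their list against control ASO, and the 2 genes most correlated with each member. Members and lists were chosen with earlier results of these data known.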

Additional observations from a re-analysis of the deposited data

Results flagged for a closer look

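In 4 of 40 sets, each of 1 gene (the 9 members or *Upf3b*) in 1 group of 4 to 6 mice, a single mouse lay far from the others by Dixon's ratio of gap to range. Chance would flag about 1 in 20 groups if the values were normally distributed. The ratios were taken on TPM and not on log2(TPM + 1), the scale of the fits. That rate therefore cannot be applied here, least of all to *Pym1* with its few reads. Whether 4 of 40 is more than chance would give was not tested. *Acin1* in the Upf3b-GalNAc-ASO 10 mg/kg mice had a ratio of 0.789, with replicate 3, the shallowest library, at 207 TPM and the next mouse at 85.1 TPM. *Acin1* in the Upf3b-GalNAc-ASO 20 mg/kg mice had a ratio of 0.743, with replicate 6 at 215 TPM and the next at 106 TPM. *Sap18* in the Upf3b-GalNAc-ASO 20 mg/kg mice had a ratio of 0.906, with replicate 2 at 289 TPM and the next at 90.8 TPM. *Pym1* in the Control-GalNAc-ASO 20 mg/kg mice had a ratio of 0.780, with replicate 6 at 3.75 TPM and the next at 0.826 TPM, which was a single read.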

How the results depend on the processing

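In all 159 alternative fits of the 8 comparisons, 0 members were called, with a lowest adjusted p of 0.132 over 1272 member values. Of these values 1200 kept their direction and 72 changed sign, 60 of them without 1 mouse, and no value that changed sign exceeded 0.34 in size in the reported fit. The cause was not tested. Without 1 mouse, the log2 fold changes that changed sign in at least 1 fit ran, for 10 against 15 mg/kg, from −0.41 to 0.53 for *Magohb* and −0.15 to 0.21 for *Rbm8a*, and for *Rbm8a* at 20 mg/kg from −0.12 to 0.22. For Control-GalNAc-ASO 15 mg/kg against DPBS they ran from −0.39 to 0.54 for *Magohb* and −0.10 to 0.46 for *Eif4a3*, and for Control-GalNAc-ASO 20 mg/kg from −0.095 to 0.23 for *Acin1* and −0.28 to 0.048 for *Rnps1*. Against DPBS, Upf3b-GalNAc-ASO 10 mg/kg ran from −0.32 to 0.25 for *Magohb* and −0.26 to 0.36 for *Acin1*, and Upf3b-GalNAc-ASO 20 mg/kg from −0.029 to 0.20 for *Magoh*, −0.38 to 0.20 for *Magohb*, −0.22 to 0.14 for *Rbm8a*, −0.13 to 0.35 for *Sap18* and −0.050 to 0.51 for *Acin1*. The difference between dose arms ran from −0.17 to 0.18 for *Rbm8a* and −0.25 to 0.37 for *Eif4a3*, and males minus females from −0.20 to 0.066 for *Sap18* and −0.24 to 0.58 for *Magohb*. Against DPBS, *Magohb* also changed sign without the sex covariate (0.019 at 10 mg/kg and 0.0049 at 20 mg/kg) and in 1 fit over all mice (0.054 and 0.040). Under quantile normalization *Rbm8a* was at 0.13 for the difference between dose arms and *Magohb* at −0.080 for males minus females.

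Counts over all genes moved more. For 10 against 15 mg/kg, 27 became 56 with a pseudocount of 5, 5 without a filter, 73 with quantile normalization, 10 without the sex covariate and 2 to 431 without 1 mouse. At 20 mg/kg, 236 became 67 without a filter and 70 to 270 without 1 mouse. Against DPBS, 1 fit over all mice gave 62 in place of 34 for *Upf3b* ASO at 10 mg/kg and 163 in place of 103 at 20 mg/kg. The control-ASO counts of 0 became 2 without a filter at 15 mg/kg and 1 with a pseudocount of 5 at 20 mg/kg, and 0 to 1 and 0 to 7 without 1 mouse. The call of *Upf2* was also lost without a filter, without the sex covariate and in 1 fit over all mice, with log2 fold changes of 2.27 to 2.39. The last of these fits called *Smg9* (1.78). Of the other named genes, *Ddx39* and *Eif4a1* without Upf3b-GalNAc-ASO 10 mg/kg replicate 1 and *Cnot8* without Upf3b-GalNAc-ASO 20 mg/kg replicate 4 were called.

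Same-numbered mice had residual correlations of −0.18 to 0.36 over 4 pairs for 10 against 15 mg/kg and −0.26 to 0.10 over 5 pairs at 20 mg/kg. The means were 0.064 and −0.031, beside −0.017 and 0.0068 for differently numbered mice. Of the 4 and 5 *Upf3b*-ASO mice, 2 and 1 correlated best with the control mouse of their own number. So few pairs cannot decide whether the numbers pair the mice, and the reported fits did not use them. With the replicate number as a block, 95 genes were called for 10 against 15 mg/kg and 45 at 20 mg/kg, and against DPBS 9 and 42 for *Upf3b* ASO and 2 for Control-GalNAc-ASO 15 mg/kg. Values that changed sign under the block were those of *Magohb* (−0.046) for 10 against 15 mg/kg, *Rbm8a* (−0.061) at 20 mg/kg, and, for Upf3b-GalNAc-ASO 20 mg/kg against DPBS, *Magoh* (−0.27), *Magohb* (0.51), *Rbm8a* (0.001965) and *Sap18* (−0.019). *Upf3b* at 10 mg/kg against DPBS was −2.41 under the block (limma adjusted p = 0.201). No block was fitted for the difference between dose arms or for sex.

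Of the 8 pairs across mice, 1 was past the threshold without DPBS replicate 6 (*Rnps1* and *Sap18*, r = 0.565) and 0 under the other settings. *Magoh* and *Rbm8a* changed sign without the shallowest mouse (r = 0.0248) and without DPBS replicate 6 (r = 0.183), and *Rnps1* and *Acin1* without the latter (r = −0.200). With 4 to 6 mice per ASO group each interval of *Magohb* passed a 2-fold change in at least 1 direction, and *Pym1* was below detection in most mice.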
